A study of Mus musculus with 18 samples.

Results

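Fatty acid synthesis and elongation were followed through 6 genes of mouse, Acly, Acss2, Acaca, Fasn, Elovl6 and Fads2, out of 8109 genes that could be named on the arrays. They were chosen as enzymes of one pathway, with earlier results of these data known. Counts of members set beside shares of all probes below are therefore descriptions and not tests. Each gene was found by reading the number inside a probe's name as an NCBI gene ID. Every member had 1 probe, so all 6 of 6 were measured, and each name rests on that reading. Total RNA of mice lacking Cav1 (KO) and of their wild-type counterparts (WT) had been measured with Illumina Mouse-6 V1 arrays, on which a probe's value is the mean brightness of the beads that carry it. Cav1 encodes caveolin-1, a structural protein of caveolae, the small pits of the cell surface found in large numbers on fat cells. The 18 arrays formed 6 groups of 3. Mouse embryonic fibroblasts (MEFs) were a primary line of each genotype collected 24 hours after plating, so that each genotype may be 1 line. Liver came from WT and KO mice after 24 hours without food. Adipose tissue came from WT and KO mice after 11 hours without food, and the labels used here do not give its depot, nor the strain, sex or age of the mice. The knockout was not restricted to a tissue by any label. It is not stated whether arrays within a group stem from different animals or dishes, so the p-values below reflect the spread between arrays, which may be technical.

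The 6 enzymes act at different steps of making and modifying fatty acids. ATP citrate lyase (Acly) and the cytosolic acetyl-CoA synthetase (Acss2) are parallel sources of acetyl-CoA, from citrate and from acetate. Acetyl-CoA carboxylase alpha (Acaca) turns acetyl-CoA into malonyl-CoA, and fatty acid synthase (Fasn) builds palmitate from both. Elovl6 lengthens palmitate towards stearate, and Fads2, the delta-6 desaturase, adds a double bond to polyunsaturated fatty acids from the diet. In liver and fat these genes are classic targets of the transcription factor SREBP and are known to be high after feeding and low in fasting, when insulin is low.

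The targeted gene separated the genotypes in MEFs and adipose tissue. Cav1 raw signal was 9766 to 10821 on WT and 789 to 1690 on KO MEF arrays, and 25664 to 50304 against 1940 to 3167 in adipose tissue. In liver it was 158 to 186 against 110 to 134, with detection on 1 of 3 KO arrays, so it is a weak check of the liver labels. Between 12076 and 16973 probes were detected per array. Labelled tissues could be checked against few markers, since 2 of 9 adipocyte and 3 of 8 hepatocyte markers had a named probe. Pnpla2, the adipose triglyceride lipase, was at 15.72 ± 0.22 (log2 intensity, SD, n = 3) on the WT adipose arrays, but also at 11.32 in WT liver. Fabp4, the other adipocyte marker, was at 10.73 in WT adipose tissue, 6.68 in WT liver and 7.07 in WT MEFs. The hepatocyte apolipoprotein gene Apoa1 was at 15.43 ± 0.00 on the WT liver arrays, 8.35 in WT adipose tissue and 7.19 in WT MEFs. Each tissue was normalized by itself, so these levels check the labels only roughly.

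The promoters are shown because 5 of the 6 genes had lower means in KO than in WT adipose tissue, and because SREBP, USF, NF-Y and Sp1 are the factors best known to act on such genes. RefSeq sequences of the assembly GRCm38.p6 cover 250 bases before to 50 bases after the annotated start, and all 6 of 6 members had one. They lie at chr11:100527951-100528250 (minus strand) for Acly, chr2:155517793-155518092 (plus) for Acss2, chr11:84195188-84195487 (plus) for Acaca, chr11:120824498-120824797 (minus) for Fasn, chr3:129532136-129532435 (plus) for Elovl6 and chr19:10101454-10101753 (minus) for Fads2. The letter patterns were searched on both strands. They were the sterol regulatory element TCACNCCAC, the E-box CACGTG, the CCAAT box CCAAT and the GC box GGGCGG, and no pattern contains another. Capitals mark every match in the sequences, which run 5′ to 3′ on the gene's strand. Acly and Fasn are printed as examples with matches, and Elovl6 as the gene with the largest difference.

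Acly: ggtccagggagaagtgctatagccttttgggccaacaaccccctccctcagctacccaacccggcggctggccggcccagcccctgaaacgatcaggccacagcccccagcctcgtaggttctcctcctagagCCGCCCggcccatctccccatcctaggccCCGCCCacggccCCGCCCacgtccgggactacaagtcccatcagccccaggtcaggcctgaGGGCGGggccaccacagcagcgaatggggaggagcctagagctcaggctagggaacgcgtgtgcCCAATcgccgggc

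Fasn: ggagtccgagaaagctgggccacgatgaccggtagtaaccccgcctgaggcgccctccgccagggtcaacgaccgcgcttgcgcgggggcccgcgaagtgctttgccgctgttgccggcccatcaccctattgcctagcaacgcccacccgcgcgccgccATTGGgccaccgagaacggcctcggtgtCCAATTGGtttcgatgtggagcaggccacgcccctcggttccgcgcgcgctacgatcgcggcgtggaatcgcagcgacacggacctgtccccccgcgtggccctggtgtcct

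Elovl6: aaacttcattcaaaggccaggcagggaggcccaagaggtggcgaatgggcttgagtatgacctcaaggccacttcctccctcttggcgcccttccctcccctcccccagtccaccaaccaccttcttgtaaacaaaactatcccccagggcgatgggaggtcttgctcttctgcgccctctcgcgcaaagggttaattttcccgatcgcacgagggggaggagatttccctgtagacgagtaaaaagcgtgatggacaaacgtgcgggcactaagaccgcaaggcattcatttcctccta

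The CCAAT box was present in 3 of 6 members (Acly, Acss2 and Fasn), against 37.4% of 32851 mouse promoters of the same length. Fasn held it on both strands in a single run where the forward and reverse matches overlap. The GC box was also present in 3 of 6 (Acly, Acss2 and Fads2), against 35.7% of all promoters. Neither the sterol regulatory element nor the E-box, present in 1.24% and 7.15% of all promoters, matched in any member. Elovl6 and Acaca held no match to any pattern. The Acaca and Fasn windows each lie at a start inside the annotated span of the gene. These genes may have other starts, so the letters and GC content describe those windows alone. GC content was 68.7% in Acly, 65.0% in Acss2, 39.7% in Acaca, 69.3% in Fasn, 55.7% in Elovl6 and 67.0% in Fads2, against a median of 52.7% over all promoters. These are matches of letters in 1 window per gene and do not show what binds there.

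In adipose tissue, 5 of the 6 genes had lower mean values in KO than in WT, from the supply of acetyl-CoA to elongation, and Elovl6 had by far the largest difference, 5.71-fold. None of the 6 passed the threshold, an adjusted p under 0.05 in limma over all 15967 probes tested, which 65 probes (0.407%) did. At an unadjusted p under 0.05 there were 4 of 6 (Acly, Acaca, Fasn and Elovl6), against 13.2% of all probes tested. The same 4 had every KO value below every WT value, against 19.6% of probes whose groups did not overlap in either direction. The median difference of the 6 was -0.65 (log2, KO minus WT), against 0.00 over all probes tested.

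**Figure D1:**
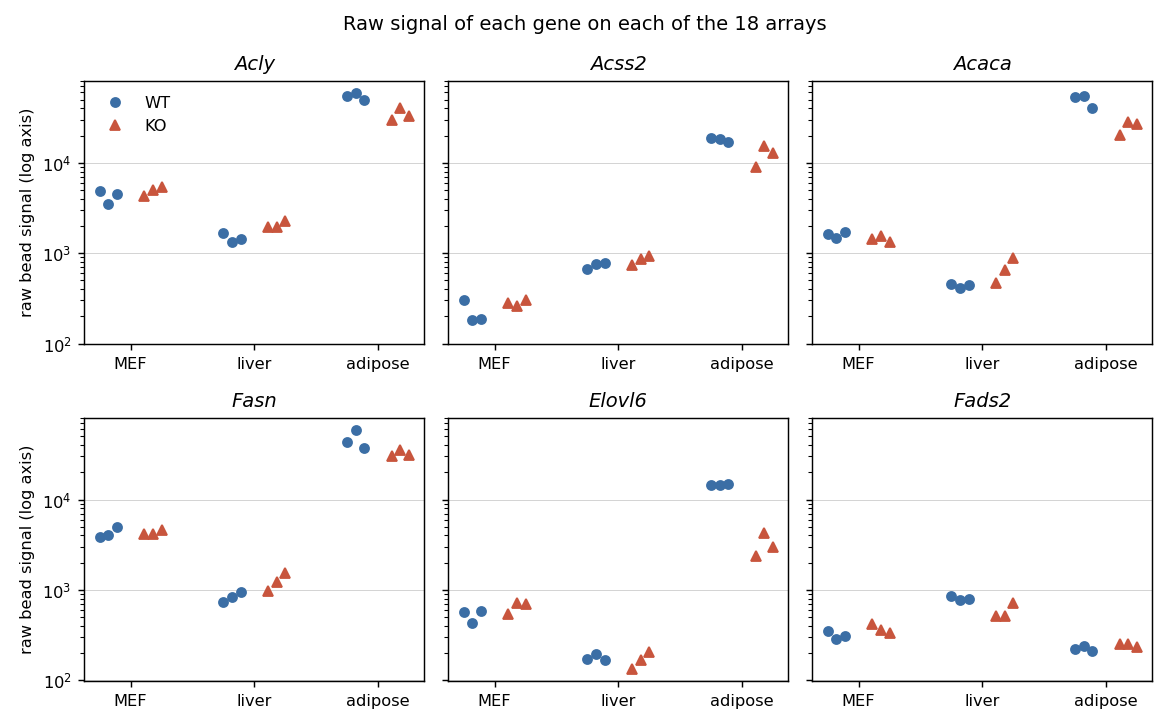
Raw bead signal of the 6 genes on every array, on a log axis, with WT as circles and KO as triangles in MEFs, liver and adipose tissue. Elovl6 in adipose tissue shows the widest gap, with WT arrays between 14290.1 and 15016.0 and KO arrays between 2368.8 and 4255.1.

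Of the enzymes that supply acetyl-CoA, Acly had raw signals of 54800.4, 59208.4 and 50138.0 in WT (replicates 1, 2 and 4) and 29407.8, 40835.4 and 32597.9 in KO (replicates 2, 3 and 5). All 3 WT arrays lay above all 3 KO arrays. After background correction and normalization the Acly difference was -0.72 ± 0.17 (log2, SE, n = 3 per group, 95% confidence interval -1.14 to -0.29), with limma's adjusted p = 0.196. Acss2, which uses acetate, gave 18736.0, 18483.4 and 16928.1 in WT and 9065.0, 15397.4 and 12687.2 in KO. Its raw groups were apart, but after normalization they overlapped, and the difference was -0.58 ± 0.30 (interval -1.34 to 0.18, limma's adjusted p = 0.493).

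Acaca, the enzyme that commits acetyl-CoA to fatty acids, gave 53712.1, 55459.0 and 40151.4 in WT and 20072.4, 28370.1 and 26693.2 in KO. The groups did not overlap, and the difference was -0.98 ± 0.24 (interval -1.59 to -0.36, limma's adjusted p = 0.208), or 1.97-fold higher in WT. Fasn gave 42821.1, 59184.2 and 37200.8 in WT against 30206.2, 35497.5 and 31102.5 in KO. The lowest WT array lay just above the highest KO array, and the difference was -0.54 ± 0.14 (interval -0.88 to -0.19, limma's adjusted p = 0.217). Some of these signals were near the top of the scale, where an array may respond less than in proportion. On the WT arrays Acly reached 73.6% to 85.8% of the highest signal on its array, Acaca 59.0% to 84.1% and Fasn 54.6% to 84.1%. Whether this made their differences smaller was not tested.

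Elovl6, the elongase of palmitate, gave 14331.6, 14290.1 and 15016.0 in WT. The 3 KO signals were 2368.8, 4255.1 and 2978.7. The WT arrays were close together and each KO array was far below them. The normalized level was 13.81 ± 0.29 in WT and 11.29 ± 0.60 in KO (log2, SD, n = 3). The difference was -2.51 ± 0.34 (SE, interval -3.36 to -1.66), which ranked 8 of 15967 probes from the lowest, with an unadjusted p = 0.000531 and limma's adjusted p = 0.0704, which missed the threshold. It passed under 6 of 15 other settings, and its adjusted p ranged from 2.04e-05 to 0.223 over them while the difference stayed between -2.74 and -2.18. The arrays lay on 1 slide, with WT 2, KO 2 and KO 3 at positions A to C and WT 4, KO 5 and WT 1 at D to F. Within these sections the Elovl6 difference was -2.33 and -2.39.

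Fads2 had little signal in adipose tissue, 221.7, 241.4 and 210.8 in WT and 254.7, 252.1 and 236.0 in KO, and was detected on 5 of 6 arrays. The groups overlapped after normalization, with a difference of 0.02 ± 0.03 (interval -0.05 to 0.08, limma's adjusted p = 0.869). A signal so close to background gives a compressed difference. With the authors' normalized values the difference was 0.35, which did not pass either (limma's adjusted p = 0.641).

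**Figure D2:**
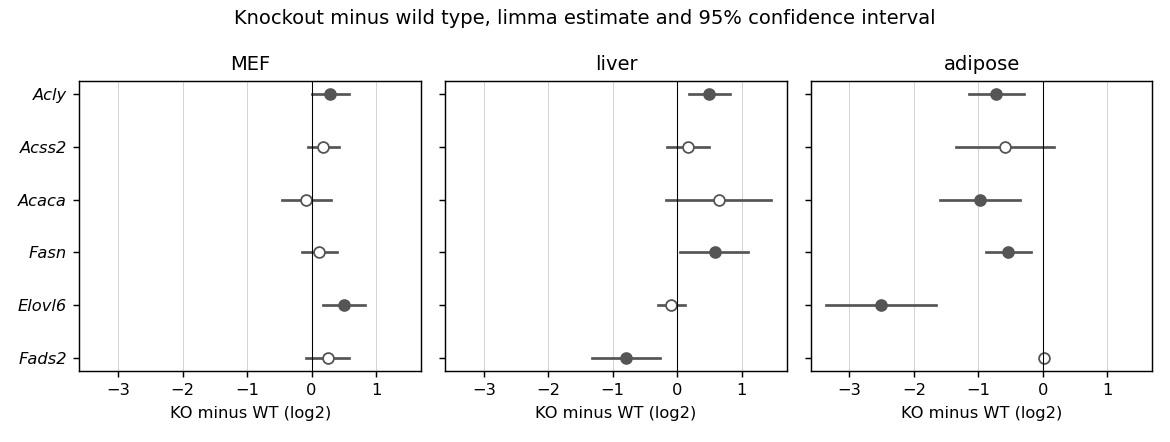
Difference KO minus WT on the log2 scale for each gene (points) with its 95% confidence interval from limma (lines) in MEFs, liver and adipose tissue. Filled points mark genes whose WT and KO arrays did not overlap after normalization; 5 of the 6 points lie below 0 in adipose tissue, with Elovl6 at -2.51.

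Means of some markers of other cells differed between genotypes in the same adipose arrays. All 3 measured fibroblast markers of 7 listed (Col1a1, Col3a1 and Dcn) had higher means in KO, with a median difference of 1.13. Their normalized intensities, taken back from log2, summed to 1.86e+04 to 3.50e+04 on the WT arrays and 3.51e+04 to 7.18e+04 on the KO arrays. All 3 measured macrophage markers of 6 listed also had higher means in KO, with sums of 2.34e+03 to 6.37e+03 against 4.24e+03 to 1.18e+04, while Itgam was not detected on any array. After normalization the groups overlapped for Col1a1, Col3a1 and the 3 macrophage markers. Other lists, with 1 or 2 measured genes each, had medians of -0.13 (endothelial), -0.01 (lymphocyte), -0.45 (red blood cell), 0.26 (hepatocyte) and 0.03 (mammary epithelium). None of these markers passed the threshold. The 2 measured adipocyte markers, Fabp4 and Pnpla2, each differed by -0.10, with sums of 4.74e+04 to 6.20e+04 in WT and 4.73e+04 to 5.89e+04 in KO. In tissue, fewer fat cells and less RNA per fat cell cannot be told apart, and the part of these markers in the member differences was not tested.

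Related genes were read from lists of the pathway, and none of their measured members passed the threshold in adipose tissue. Of 7 genes in the list of NADPH supply, 4 were measured, with a median of -0.43. NADPH is the reducing agent of fatty acid synthesis, and Tkt and Taldo1 in this list do not make it themselves. Tkt, the transketolase of the pentose phosphate pathway, differed by -0.87 ± 0.30 (limma's adjusted p = 0.324, its second probe by -1.21) and Pgd, which makes NADPH in the same pathway, by -0.55 ± 0.25 (0.439). Taldo1 was at -0.31 ± 0.19 (0.563) and Idh1, which makes NADPH, at 0.00 ± 0.19 (0.998). Of 9 other genes of acetyl-CoA and malonyl-CoA supply 2 were measured, Mlycd, the decarboxylase of malonyl-CoA, at -0.87 ± 0.20 (0.188) and the mitochondrial acetyl-CoA synthetase Acss1 at -0.14 ± 0.13 (0.727). Other desaturases and elongation enzymes were measured for 6 of 18 genes, with a median of -0.03. Hsd17b12, the ketoacyl-CoA reductase that works with the elongases, differed by -0.55 ± 0.09 (0.102) and the very long chain elongase Elovl1 by 0.30 ± 0.11 (0.340). Scd1, the best known desaturase of fat, had no named probe.

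The median was near 0 for regulators and triglyceride assembly and below 0 for sterol genes. The 9 measured of 29 regulators had a median of 0.01, and their largest differences were those of the coactivator Ppargc1b, -0.37 ± 0.12 (limma's adjusted p = 0.293), and the liver X receptor Nr1h3, -0.28 ± 0.17 (0.568). Srebf1 had a probe that was not detected on any array of the 3 tissues. The 7 measured of 20 acyl-CoA synthetases and enzymes of triglyceride assembly had a median of 0.11. The 2 with lower means in KO were Mogat1 at -0.52 ± 0.56 (0.771) and Acsl1, which activates long-chain fatty acids, at -0.51 ± 0.31 (0.556). The other 5 had higher means in KO. Among them was the glycerol-3-phosphate acyltransferase gene Gpat3 at 0.51 ± 0.28 (0.517), added after its value was seen. Sterol synthesis genes, another set of SREBP targets, were measured for 5 of 12 genes with a median of -0.35. Lss, the lanosterol synthase, differed by -1.07 ± 0.24 (0.178) and Fdps, the farnesyl diphosphate synthase, by -0.65 ± 0.27 (0.395).

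**Figure D3:**
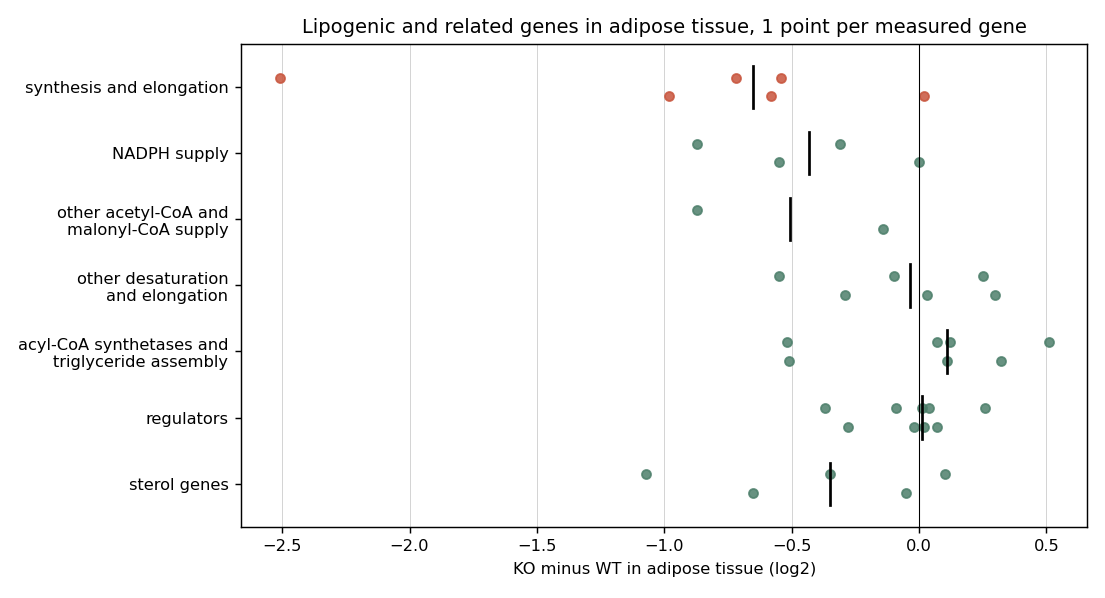
Difference KO minus WT in adipose tissue on the log2 scale, with 1 point per measured gene and a bar at the median of each list. The synthesis and elongation genes had a median of -0.65 and NADPH supply -0.43, while the regulators had 0.01.

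In liver, the means of the genes of acetyl-CoA supply, carboxylation and synthesis were higher in KO, and that of the desaturase Fads2 was lower. None of the 6 passed the threshold in limma, which 590 of 12573 probes tested (4.69%) did. At an unadjusted p under 0.05 there were 3 of 6 (Acly, Fasn and Fads2), against 22.2% of all probes tested, and the same 3 had groups that did not overlap, against 27.9% of probes. The median of the 6 was 0.34, against 0.00 over all probes tested.

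Acly gave raw signals of 1665.8, 1315.9 and 1420.0 in WT liver and 1968.8, 1962.0 and 2271.2 in KO liver, with every KO array above every WT array. The difference was 0.50 ± 0.13 (log2, SE, interval 0.18 to 0.82, limma's adjusted p = 0.0934). Acss2 overlapped between the groups, with a difference of 0.17 ± 0.13 (interval -0.16 to 0.50, adjusted p = 0.539).

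Acaca gave 451.4, 412.9 and 443.8 in WT and 463.9, 644.7 and 895.7 in KO. The KO arrays ranged widely and 1 lay among the WT arrays after normalization, so the difference of 0.65 ± 0.33 (interval -0.17 to 1.46, limma's adjusted p = 0.325) was not larger than the spread. It was 0.31 without KO 3 and 0.99 without KO 1. Fasn gave 736.7, 833.0 and 956.4 in WT and 978.0, 1227.8 and 1552.8 in KO. The groups were apart, with a difference of 0.58 ± 0.21 (interval 0.05 to 1.10, adjusted p = 0.189).

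Elovl6 was dim in fasted liver, between 133.4 and 205.9 on all 6 arrays, and the groups overlapped. Its difference was -0.09 ± 0.09 (log2, SE, interval -0.30 to 0.12, limma's adjusted p = 0.613). That value depends on how background is handled and was -0.80 with the authors' values, which did not pass either. Fads2 gave 848.5, 779.5 and 787.9 in WT and 509.8, 513.0 and 715.4 in KO, all KO arrays below all WT arrays. The difference was -0.79 ± 0.21 (interval -1.32 to -0.27), or 1.73-fold higher in WT, with limma's adjusted p = 0.100. Without KO 3, the KO array nearest to WT, it was -1.04 with an adjusted p = 0.0263, which passed.

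WT 1 was on another slide than the other 5 liver arrays. With the slide as a block, which leaves the comparison to the other 5, the differences were 0.63 for Acly, 0.10 for Acss2, 0.69 for Acaca, 0.48 for Fasn, -0.11 for Elovl6 and -0.73 for Fads2, and none passed. On that slide WT held the earlier positions and KO the later ones, so position and genotype cannot be told apart among these 5. The 2 measured of 3 red blood cell markers (Hbb-b1 and Hba-a1) had summed normalized intensities of 1.93e+04 to 3.55e+04 on WT and 4.01e+03 to 1.61e+04 on KO liver arrays. Neither passed the threshold (limma's adjusted p = 0.100 and 0.153). Of 3 measured hepatocyte markers Serpina1e fell by 5.58 ± 0.26 (limma's adjusted p = 0.00150), Apoa1 differed by -0.19 and Apoa2 by 0.00. The part of these markers in the member values was not tested.

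Among 31 measured related genes in liver, 2 passed the threshold (6.45%), close to the 4.69% of all probes tested. Ppargc1b, a coactivator known in mouse liver to act with SREBP, rose by 0.28 ± 0.04 (log2, SE, limma's adjusted p = 0.0337), as 1 of 10 measured regulators, whose median was 0.02. Acsl4, an acyl-CoA synthetase with a preference for arachidonate, rose by 0.57 ± 0.09 (adjusted p = 0.0299), as 1 of 5 measured in its list. That list went both ways, with a median of 0.30. Acsl1 at -0.71 ± 0.15 (0.0626) and the glycerol-3-phosphate acyltransferase gene Gpat3 at -0.55 ± 0.13 (0.0711) had every KO array below every WT array, neither past the threshold; these 2 were added after their values were seen. Both missed the threshold in several other settings. The adjusted p of Ppargc1b was 0.0823, 0.101, 0.107, 0.111 and 0.0934 without WT 1, WT 2, WT 3, KO 2 and KO 3, and that of Acsl4 was 0.0655, 0.118, 0.0974 and 0.0859 without WT 1, WT 3, KO 2 and KO 3. With the slide as a block they were 0.0786 and 0.0658, with the authors' values 0.0694 (at a difference of 0.78) and 0.128, and with a background from the median absolute deviation 0.0580 and 0.0857. Acsl4 was also at 0.0529 without a filter on dim probes and at 0.237 in the fit over all 18 arrays.

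No gene of the other lists passed in liver. Malonyl-CoA decarboxylase Mlycd, the 1 gene measured of its list, differed by -0.42 ± 0.10 (log2, SE, limma's adjusted p = 0.0800). Among 4 measured genes of the NADPH list, with a median of 0.09, Taldo1, the transaldolase, differed by -0.37 ± 0.12 (0.152) and Tkt by 0.16 ± 0.14 (0.592). The 5 measured desaturation and elongation enzymes had a median of -0.11, with Hsd17b12 at -0.51 ± 0.32 (0.423) and Hacd1, a dehydratase of the elongation cycle, at -0.25 ± 0.18 (0.500). The 6 measured sterol genes had a median of -0.09, with Hmgcs1, the synthase of the mevalonate pathway, at -0.86 ± 0.44 (0.322) and Idi1 at -0.21 ± 0.23 (0.679).

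In MEFs the 6 genes differed by -0.08 (Acaca) to 0.50 (Elovl6) between genotypes (log2, KO minus WT). None passed the threshold in limma, which 63 of 14048 probes tested (0.448%) did. At an unadjusted p under 0.05 there were 2 of 6 (Acly and Elovl6), against 10.7% of all probes, and the same 2 had groups that did not overlap after normalization, against 16.9% of probes. The median of the 6 was 0.22, against 0.00 over all probes.

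Elovl6 gave raw signals of 569.5, 426.3 and 591.2 in WT and 539.7, 711.1 and 706.8 in KO MEFs. The raw groups overlapped, and the normalized ones did not, with a difference of 0.50 ± 0.13 (log2, SE, interval 0.17 to 0.83, limma's adjusted p = 0.263). Acly gave 4918.7, 3474.8 and 4507.5 against 4277.8, 4955.4 and 5404.2, a difference of 0.29 ± 0.11 (interval 0.00 to 0.58, adjusted p = 0.461). For the remaining genes the groups overlapped, with 0.18 ± 0.10 for Acss2, -0.08 ± 0.15 for Acaca, 0.12 ± 0.11 for Fasn and 0.25 ± 0.13 for Fads2, and limma's adjusted p of 0.591 to 0.917. Acss2 and Fads2 were dim in MEFs, so the size of their differences depends on background handling. With the authors' values they were 0.96 and 0.49, neither past the threshold. The small Acaca value rested on KO 3, and without that array it was 0.10. Same-numbered WT and KO arrays deviated together only weakly in MEFs. With the number as a block 9 probes passed instead of 63, with 0 of the 6 genes among them. The first 3 positions of the slide held WT and the last 3 held KO, so position and genotype cannot be told apart.

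No related gene passed in MEFs either. All 7 measured sterol genes of 12 had higher means in KO, with a median of 0.45, of which Lss differed by 0.74 ± 0.32 (log2, SE, limma's adjusted p = 0.509) and Cyp51, the sterol demethylase, by 0.56 ± 0.22 (0.449; its second probe by 0.84). The 4 measured genes of the NADPH list had a median of 0.10, with the cytosolic isocitrate dehydrogenase Idh1 at 0.77 ± 0.26 (0.369) and Taldo1 at -0.12 ± 0.08 (0.693). Among 6 measured desaturation and elongation enzymes, with a median of -0.04, Scd2 differed by 0.25 ± 0.16 (0.695) and Elovl1 by -0.20 ± 0.08 (0.447). Among 7 measured regulators, with a median of 0.03, Insig1, the retention protein of SREBP, differed by 0.37 ± 0.20 (0.598) and Srebf2 by 0.18 ± 0.08 (0.505). The others named by the same rule were close to 0, with Mlycd at -0.08, Acsl4 at -0.12 and Acsl1 at -0.02.

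Levels of the same probe were then set between WT tissues, after the 18 arrays were normalized together, on the log2 intensity scale. Adipose tissue was the highest of the 3 tissues for Acly, Acss2, Acaca, Fasn and Elovl6, and the lowest for Fads2. All 6 genes differed in each of the 3 contrasts, with the largest adjusted p in limma at 0.00935. With the replicate number as a block 17 of these 18 tests passed, and Elovl6 between liver and MEFs did not (limma's adjusted p = 0.0957). In these contrasts 56.7% (adipose against liver), 59.3% (adipose against MEF) and 56.3% (liver against MEF) of 19060 probes passed too, so that passing by itself says little here. Slide and fasting time went with tissue and cannot be told apart from it.

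**Figure D4:**
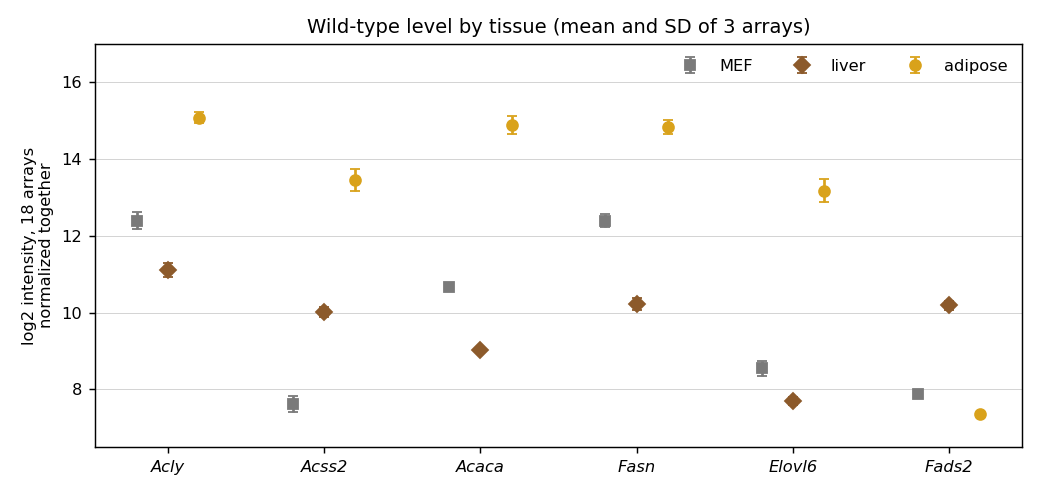
Level of each gene in WT MEFs (squares), liver (diamonds) and adipose tissue (circles) as log2 intensity after joint normalization, mean with SD of 3 arrays. Heights are comparable within a gene only; adipose tissue is highest for 5 genes and lowest for Fads2.

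The acetyl-CoA enzymes differed in which tissue came second. Acly was at 15.08 ± 0.15 (log2, SD, n = 3) in adipose tissue, 12.40 ± 0.23 in MEFs and 11.11 ± 0.19 in liver, so liver was the lowest. Acss2 was at 13.46 ± 0.29 in adipose tissue, 10.01 ± 0.13 in liver and 7.62 ± 0.20 in MEFs. It was dim in MEFs and 57.2-fold below adipose tissue there, a step that ranged from 5.39 to 6.20 (log2) over the other settings. The order of MEFs and liver was therefore opposite for the 2 genes, with liver minus MEF at -1.29 ± 0.15 for Acly and 2.38 ± 0.22 for Acss2 (SE).

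Acaca and Fasn followed the order of Acly. Acaca was at 14.89 ± 0.23 in adipose tissue, 10.68 ± 0.02 in MEFs and 9.03 ± 0.08 in liver, and adipose tissue exceeded liver by 5.86 ± 0.27 (log2, SE), or 58.3-fold. Adipose tissue exceeded liver by 4.61 ± 0.16 for Fasn, or 24.3-fold, and MEFs by 2.45 ± 0.16. Elovl6 in adipose tissue exceeded liver by 5.47 ± 0.24, or 44.4-fold, and MEFs by 4.62 ± 0.24. Liver Elovl6 lay below MEFs by a smaller step, -0.85 ± 0.24. Since Elovl6 was dim in liver, the sizes of these steps depend on background handling. Over the other settings adipose minus liver ranged from 4.92 to 5.65 for Elovl6, and liver minus MEF from -1.42 to -0.61. Acaca and Fasn were near the top of the scale in adipose tissue, and adipose minus liver for Acaca went down to 5.20.

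Fads2 had the reverse pattern, with liver the highest. Liver exceeded MEFs by 2.31 ± 0.15 (log2, SE), or 4.95-fold. Adipose minus liver was -2.83 ± 0.15, and adipose minus MEF -0.53 ± 0.15 (limma's adjusted p = 0.00935), a step whose size depends on background handling because the adipose signal was near background. Over the other settings it ranged from -2.51 to -0.48, and the step to liver from -4.84 to -2.78.

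Whether the knockout effect itself differed between tissues was tested as the difference of the KO minus WT differences in the same joint fit. In 7 of 18 tests a member passed. The contrasts share groups, so that adipose against liver and adipose against MEF both use the adipose arrays, and their values are not independent of each other. Between adipose tissue and liver, 4 of 6 genes passed, against 4.49% of 19060 probes. Between adipose tissue and MEFs 2 of 6 passed, against 2.69%, and between liver and MEFs 1 of 6, against 4.01%. These shares include probes that met the detection filter in only some of the tissues.

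Elovl6 had the lowest values. Its effect in adipose tissue minus that in liver was -2.49 ± 0.35 (log2, SE, interval -3.24 to -1.75, limma's adjusted p = 0.000921). Against MEFs it was -3.13 ± 0.35 (interval -3.88 to -2.39, adjusted p = 0.000241). Liver Elovl6 was dim, so the size of its difference from liver depends on background handling. Over 24 other settings that difference ranged from -2.73 to -1.87, with limma's adjusted p at most 0.0436. Acly differed by -1.15 ± 0.21 against liver (adjusted p = 0.00652) and by -1.00 ± 0.21 against MEFs (0.0217). The second of these missed the threshold without MEF WT 2 (-0.88, 0.0550) and without adipose WT 1 (-0.91, 0.0602), and with the replicate number as a block (-1.00, 0.0586).

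Acaca differed between adipose tissue and liver by -1.60 ± 0.38 (log2, SE, limma's adjusted p = 0.0284) and Fasn by -1.06 ± 0.23 (0.0183). The Acaca call was lost without liver WT 2 (-1.58, 0.0577), liver WT 3 (-1.57, 0.0651), liver KO 2 (-1.59, 0.0584), adipose KO 2 (-1.39, 0.0675) or adipose WT 1 (-1.47, 0.0724). Against MEFs the differences were -0.91 ± 0.38 for Acaca (0.291) and -0.66 ± 0.23 for Fasn (0.183). Acss2 did not pass in any contrast, with -0.75 ± 0.31 between adipose tissue and liver (interval -1.43 to -0.07, 0.239) and -0.79 ± 0.31 between adipose tissue and MEFs (0.257).

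Fads2 was the member whose liver effect stood apart from MEFs, by -1.01 ± 0.22 (log2, SE, limma's adjusted p = 0.0200). This was lost without MEF WT 2 (-0.99, 0.0503). Between adipose tissue and liver it differed by 0.76 ± 0.22 (0.0698), and by 0.99 without liver KO 3, which passed (0.00184). Fads2 was near background in adipose tissue, where a fall could hardly have been seen. This contrast therefore mostly restates the liver difference and cannot show that the effect is absent in adipose tissue. The other 5 members did not pass between liver and MEFs, with differences of -0.64 for Elovl6 to 0.69 for Acaca.

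**Figure D5:**
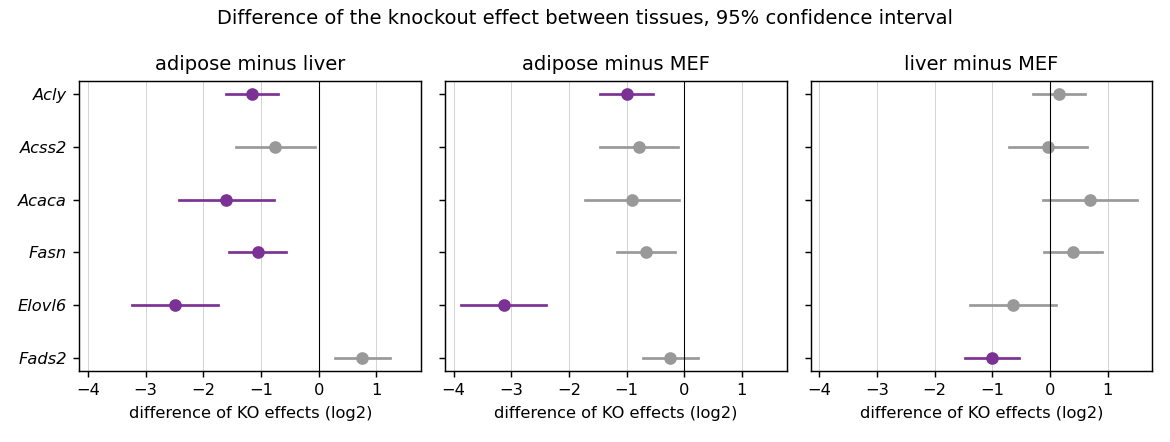
Difference of the knockout effect (KO minus WT) between pairs of tissues on the log2 scale, with 95% confidence intervals. Dark points passed an adjusted p of 0.05 in limma, 4 genes between adipose tissue and liver, 2 between adipose tissue and MEFs and 1 between liver and MEFs.

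Across arrays the first 5 genes went together in adipose tissue. Pearson's r between pairs of Acly, Acss2, Acaca, Fasn and Elovl6 over the 6 adipose arrays was 0.81 to 0.98, as a description, since the arrays share the split by genotype. With Fads2 it was -0.43 to -0.10. After the mean of each tissue was subtracted, r over all 18 arrays was highest between Acaca and Fasn (0.88), and it was 0.58 between Fasn and Elovl6.

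By the same measure, the named genes most like each member were taken among 3024 genes detected in all 3 tissues. For Acly they were Ccdc28b (0.84), the zinc transporter gene Slc39a11 (0.83) and Acat2 (0.82), the cytosolic acetoacetyl-CoA thiolase. For Acss2 they were Rfesd (0.90), Serhl (0.86) and Acat3 (0.83). For Acaca they were Slc39a11 (0.89), Fasn (0.88) and BC003965 (0.84), and for Fasn they were the zinc finger factor Rreb1 (0.90), Acaca (0.88) and Slc39a11 (0.87). Among the genes most like Elovl6 were Akr1b10 (0.94), an aldo-keto reductase, and Cd274 (0.93). Fads2 was most like the glycerol kinase gene Gk (0.85), Krtap5-4 (0.84) and Prxl2c (0.83).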

How the data were processed

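Raw values were deposited as mean bead intensities, not normalized, from BeadStudio 1.5.1.3 per the file headers, with 27 to 60 beads behind each value of the 6 genes. The deposited detection p-values compare each probe with the array's negative controls. The authors also deposited normalized intensities, used as an alternative, and other information on slide positions. Tools in the submitters' processing notes are affy, limma, lumi and RMA, with no role given. Members and gene lists were chosen with earlier results of these data known.

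Of 45992 probes 75 controls were left out, and 9807 probes were named through RefSeq gene IDs (GRCm38.p6, names and promoters). In R 4.3.3 with limma 3.58.1, neqc corrected background, added 16, quantile normalized each tissue's 6 arrays (or all 18 for contrasts between tissues) and took log2. Probes detected (p under 0.05) on 3 or more of 6 arrays entered lmFit and eBayes, two-sided, with Benjamini-Hochberg adjustment over all of them. For the fit over 18 arrays this had to hold in at least 1 tissue. The background SD was 112 to 507 against a median absolute deviation of 11.7 to 23.0, which compresses dim probes. The number of arrays, 3 per group, limits precision. From each list the genes past the threshold were named, otherwise the 2 with the largest difference, and for each member the 3 most correlated genes, of which 1 is not reported here. Scripts were tested on simulated data.

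Deviations from group means of same-numbered WT and KO arrays correlated at 0.101, 0.227 and 0.238 in MEFs, and at 0.227, 0.234 and -0.103 in liver. The numbers were therefore read as pairs in MEFs only, from the data and not from a label. These correlations were weak, and MEF arrays of different numbers correlated at -0.254 to 0.126, so the ranges overlap and the pairing is uncertain.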

Additional observations from a re-analysis of the deposited data

Results flagged for a closer look

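In 7 tests the knockout effect of a member differed between 2 tissues by limma's interaction contrast over all 18 arrays. Between adipose tissue and liver the difference was -1.15 for Acly, -1.60 for Acaca, -1.06 for Fasn and -2.49 for Elovl6 (log2). Between adipose tissue and MEFs it was -1.00 for Acly and -3.13 for Elovl6. Between liver and MEFs it was -1.01 for Fads2. In adipose tissue Acly, Acaca, Fasn and Elovl6 had lower means in KO, and in liver Acly, Acaca and Fasn had higher ones. The 2 tissues also differed in slide and in hours without food, 11 in adipose tissue and 24 in liver, and these cannot be told apart from tissue. The groups held 3 arrays, so single arrays were not screened as outliers.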

How the results depend on the processing

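No member passed in MEFs under any of 15 other settings. In liver the count of members past the threshold was 0, and 1 (Fads2) with trended robust variance and in the fit over all 18 arrays. Leaving out 1 array gave 0 to 1 in liver, and 0 to 0 in adipose tissue and in MEFs. In adipose tissue the count of 0 became 1 (Elovl6) with no background correction (adjusted p = 0.00364 in limma), with a background from the median absolute deviation (0.0135), with median centring (0.0202), with the authors' values (0.0272) and with trended robust variance (0.00589). It became 3 in the fit over all 18 arrays, with Elovl6, Acly (0.0110) and Acaca (0.0426). The causes were not tested. Contrasts between tissues passed in 17 to 18 of 18 tests, with 17 in the fit with the replicate block, which did not compare group means. Those of the knockout effect passed in 5 to 8 (7 as reported).

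Direction changed for values near 0. Acaca in MEFs ranged from -0.19 to 0.10 when 1 array was left out, Acsl4 in MEFs from -0.48 to 0.07 (0.07 and 0.03 without KO 1 and KO 2), Idi1 in liver from -0.37 to 0.01 and the Acss2 effect in liver minus MEFs from -0.15 to 0.07 (0.01, 0.03 and 0.02 among them). Fads2 in adipose tissue was -0.01 with median centring. Counts over all probes moved most, from 9 to 476 in MEFs (63 as reported), 58 to 1586 in liver (590) and 17 to 1140 in adipose tissue (65). Dim probes moved with background handling, and in MEFs Acss2 was at 0.96 and Fads2 at 0.49 with the authors' values.

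With replicate numbers as a block, the Elovl6 difference in MEFs was 0.50 (limma's adjusted p = 0.400) and 0 members passed. In liver, where the numbers were not read as pairs, 259 probes passed and 0 members, and Ppargc1b and Acsl4 were at 0.0755 and 0.0661. In the joint fit the block covered both MEFs and liver, although the liver numbers were not read as pairs. There 3 calls were lost. They were Acaca between adipose tissue and liver (0.0517), Acly between adipose tissue and MEFs (0.0586) and WT Elovl6 between liver and MEFs (0.0957). The Elovl6 value compares levels at replicate 1 and not group means. No paired analysis was possible in adipose tissue because WT and KO share 1 number. Without a filter on dim probes the Acaca test was at 0.0617, and with the background from the median absolute deviation Acly against MEFs was at 0.0555 and Fads2 between liver and MEFs at 0.0790.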
